A study of Mus musculus with 2 samples.

Results

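The 32 genes described here encode the enzymes that make cholesterol, the proteins that sense it, and those that move, store and export it. They were taken by name from a list chosen, like the further lists below, with earlier results of these data known. All 32 were found among the 20003 genes of the deposited table. The data came from 2 mRNA sequencing libraries of cells labelled RAW 264.7, an established line of mouse macrophages. Both groups had been given macrophage colony-stimulating factor (M-CSF, 20 ng/mL) and interleukin 4 (IL-4, 10 ng/mL), which drives alternative (M2) activation. One library was labelled M2+GANT61 and came from cells given 10 µM GANT61, a compound that inhibits GLI proteins, through which Hedgehog signals reach the genome. The other was labelled M2+DMSO and came from cells given the solvent. Either agent was added 4 h ahead of IL-4, and the labels give the time in IL-4 both as 15 min and as 24 h. The question of the series was how Hedgehog blockade alters the macrophage transcriptome. With 1 library per group there is no replicate check and no test across conditions. Every difference below is one between these libraries, and its interval covers counting error only.

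Cells keep membrane cholesterol within narrow limits through a pair of opposed transcriptional programmes. When sterols in the endoplasmic reticulum run low, the escort protein SCAP carries the transcription factor SREBP2 (gene Srebf2) to the Golgi, where proteases release it to switch on the synthesis genes; INSIG proteins hold SCAP back when sterols are plentiful. When sterols accumulate, oxysterols activate the nuclear receptors LXR-beta (Nr1h2) and LXR-alpha (Nr1h3), which induce exporters of cholesterol. Macrophages depend heavily on the export arm because they engulf cells and lipoproteins and cannot degrade the sterol ring.

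The promoters of 3 genes on which the comparison turns are shown first: Hmgcs1 and Insig1, which SREBP2 drives, and Abca1, which LXR drives. Each window holds 300 bases, from 250 before to 50 after the annotated start of transcription, in build GRCm38.p6 (mm10), from RefSeq. Hmgcs1 lies on the plus strand at chr13:119690101-119690400, Insig1 on the plus strand at chr5:28071162-28071461 and Abca1 on the minus strand at chr4:53159846-53160145. All are written 5′ to 3′ in the direction of the gene. In Hmgcs1 capitals mark a sterol response element (SRE, letters TCACNCCAC) and CCAAT boxes, which read ATTGG on this strand. In Insig1 they mark a CCAAT box and an E-box (CACGTG). In Abca1 they mark an E-box and a direct repeat with a spacer of 4 bases (DR4), the arrangement that LXR with its partner RXR is known to bind.
Hmgcs1: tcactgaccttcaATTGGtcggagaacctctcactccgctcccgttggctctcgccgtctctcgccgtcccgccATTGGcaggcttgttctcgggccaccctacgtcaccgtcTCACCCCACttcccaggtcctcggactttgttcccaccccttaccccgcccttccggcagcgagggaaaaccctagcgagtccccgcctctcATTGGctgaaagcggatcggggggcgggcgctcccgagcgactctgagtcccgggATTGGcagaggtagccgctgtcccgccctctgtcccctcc
Insig1: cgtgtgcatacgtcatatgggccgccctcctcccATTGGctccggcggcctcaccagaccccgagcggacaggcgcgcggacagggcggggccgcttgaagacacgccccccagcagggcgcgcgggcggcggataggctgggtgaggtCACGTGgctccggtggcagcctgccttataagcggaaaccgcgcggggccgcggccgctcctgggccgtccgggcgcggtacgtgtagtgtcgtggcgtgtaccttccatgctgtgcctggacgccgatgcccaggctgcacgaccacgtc
Abca1: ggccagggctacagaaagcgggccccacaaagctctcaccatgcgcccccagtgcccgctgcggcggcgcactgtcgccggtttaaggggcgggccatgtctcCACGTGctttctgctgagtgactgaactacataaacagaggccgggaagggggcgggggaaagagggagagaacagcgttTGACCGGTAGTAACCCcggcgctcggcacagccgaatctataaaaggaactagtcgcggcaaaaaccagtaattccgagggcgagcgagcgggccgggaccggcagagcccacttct

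RefSeq promoters were found for 26 of the 32 genes, in 35 windows. Both strands were searched. The SRE letters were found in 1 of the 35 windows, that of Hmgcs1, beginning at -137 from the start, and in 1.24% of all 32851 windows. CCAAT was in 20 of the 35 windows (57.1%) and in 37.4% of all windows. The GC box (GGGCGG) was in 25 of the 35 (71.4%) and in 35.7% of all windows. The E-box was in 7 of the 35 (20.0%) and in 7.15% of all windows. The DR4 search allowed up to 3 mismatches over both AGGTCA repeats and found a match in 9 of the 35 (25.7%) and in 21.9% of all windows, so a match is common. The Abca1 match starts at -67 and lies on the strand opposite to the gene. DR4 matches in Hmgcs1 and Insig1, the latter overlapping the E-box, are not in capitals. These are matches of letters, not measured sites.

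The libraries held 61632784 (DMSO) and 57705874 (GANT61) reads, and each of the 32 genes had at least 265 reads in both. Levels below are CPM (read counts scaled to a common library size), which compare a gene between libraries, or the deposited RPKM values, which also allow for gene length and compare genes within a library. The ratio is always the GANT61-labelled over the DMSO-labelled library. A gene was called higher or lower where its ratio reached 1.5 or its inverse, its counting interval excluded 1 and its mean reached 1 CPM. By this rule 24.4% of the 13939 genes at that floor were called, 14.1% higher and 10.3% lower. Both libraries also carried markers of cells other than macrophages. Of 39 markers of adipocytes, fibroblasts, epithelium, endothelium, T cells and B cells, 38 reached 10 CPM in both. So did 9971 of the 13939 genes at the floor. Macrophage markers differed between the libraries, with 9 of 10 higher, 1 lower, and a summed level of 2328 CPM (DMSO) and 6397 CPM (GANT61). Adipocyte markers had 9 of 9 lower, and their summed level was 6234 CPM (DMSO) and 977 CPM (GANT61). Per length, the median level of 8 fibroblast markers was 214 RPKM (DMSO) and 229 RPKM (GANT61), above that of the macrophage markers at 33.3 and 62.3 RPKM, so the markers go against a label of macrophages alone. No marker of these lists was at 0. In such bulk libraries, fewer cells of a type and less RNA per cell cannot be told apart.

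Of the 32 genes, 5 were higher (15.6%) and 2 lower (6.25%), beside 14.1% and 10.3% of all genes, so the number of calls does not set the group apart. What the data show is where those calls fell. The higher genes were the cholesterol exporters Abca1 and Abcg1, the apolipoprotein Apoe, the lysosomal sterol transporter Npc1 and the esterifying enzyme Soat1. The lower genes were the sterol sensor Insig1 and the early thiolase Acat2. None of the 18 synthesis enzymes was higher by the rule. At a threshold of 2, where 6.97% of all genes were higher and 4.27% lower, Abca1, Abcg1 and Npc1 remained higher and 0 members lower.

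**Figure D1:**
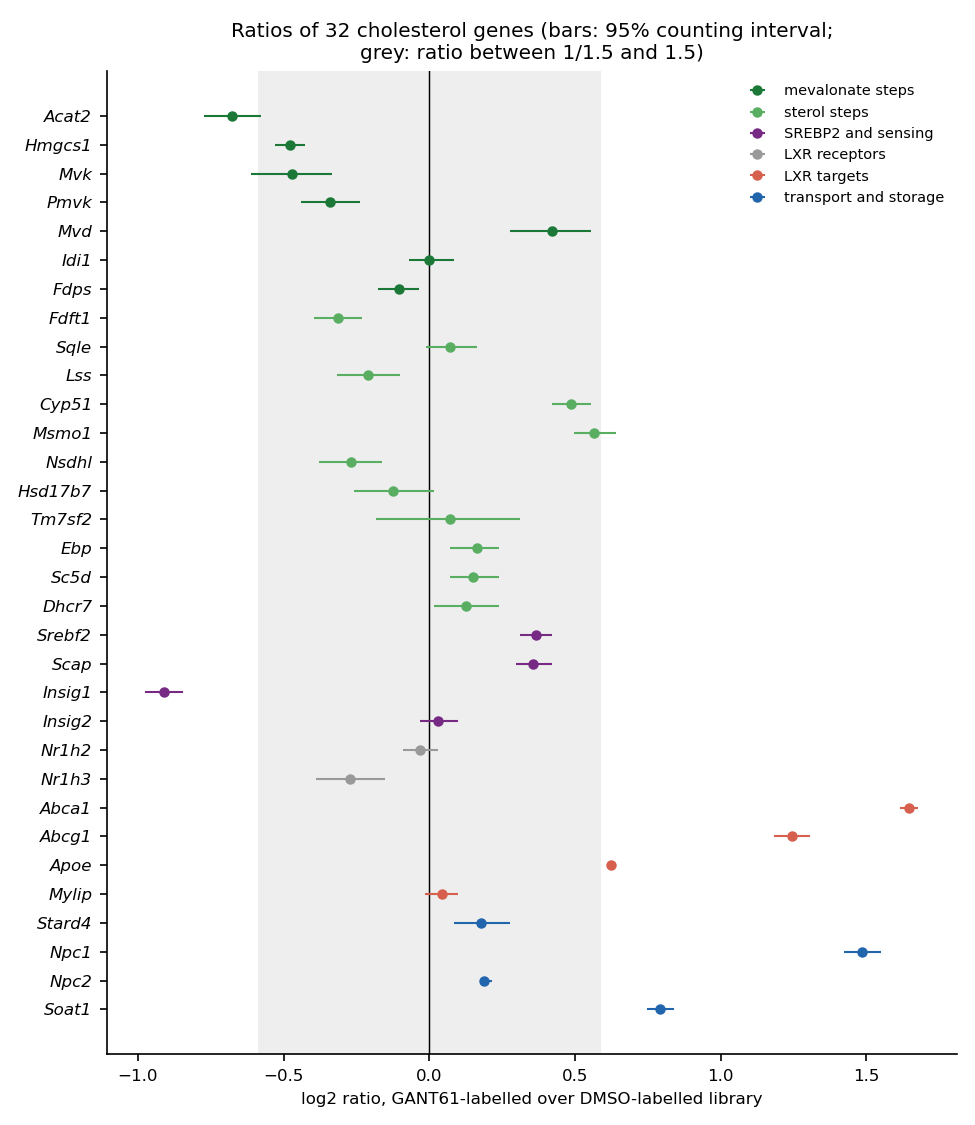
Log2 ratio (horizontal axis) of each of the 32 genes (rows, grouped by role in colour), with bars for the 95% counting interval and grey for ratios inside the threshold of 1.5. The enzymes cluster around 0 between -0.68 and 0.57, while Abca1, Npc1 and Abcg1 lie above 1.2 and Insig1 lies at -0.91.

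The mevalonate steps, which build farnesyl diphosphate from acetyl-CoA, had ratios mostly below 1, with a single call. Of 7 enzymes, 0 were higher and 1 lower by the rule, beside 14.1% and 10.3% of all genes. Their median log2 ratio was -0.34, beside -0.01 over all genes. The counting interval lay below 1 for 5 of the 7; at this depth it did so for 40.5% of all genes, lay above 1 for 39.1% and held 1 for 20.5%. Acat2, the cytosolic thiolase that joins acetyl-CoA units, stood at 38.2 CPM (DMSO) and 23.9 CPM (GANT61), for a ratio of 0.626 (0.585 to 0.670). Acat2 was the called enzyme (chromosome 17, 12942890 to 12960747, minus strand, mm10).

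Hmgcs1, the HMG-CoA synthase whose promoter with an SRE is shown above, was the most abundant enzyme in reads, at 119 CPM (DMSO) and 85.1 CPM (GANT61). Its ratio was 0.718 (0.692 to 0.744). Mevalonate kinase, Mvk, was at 17.2 and 12.4 CPM, giving a ratio of 0.721 (0.655 to 0.793), and the next kinase, Pmvk, at 30.6 and 24.2 CPM, for a ratio of 0.790 (0.737 to 0.847). The ratios of these 4 early enzymes thus lay below 1 beyond counting error, and 1 passed the threshold. The later steps did not share a direction. The decarboxylase Mvd was at 12.2 and 16.3 CPM, giving a ratio of 1.34 (1.21 to 1.47), above 1 beyond counting error but short of the threshold. The isomerase Idi1 was level at 46.4 and 46.6 CPM, and Fdps, which makes farnesyl diphosphate, was at 60.0 and 55.8 CPM, giving a ratio of 0.930 (0.886 to 0.975).

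The sterol steps, from farnesyl diphosphate by way of squalene to cholesterol, did not share a direction. Of 11 enzymes, 0 were called in either direction, and the median log2 ratio was 0.08. The counting interval lay above 1 for 5, below 1 for 3 and held 1 for 3, a split near that of all genes. The enzymes with the highest ratios act close to each other in the pathway. Msmo1, the methylsterol oxidase, was at 41.5 CPM (DMSO) and 61.4 CPM (GANT61), a ratio of 1.48 (1.41 to 1.56), nearest to the threshold of the genes that did not reach it. Cyp51, the lanosterol demethylase that acts shortly before it, was at 55.3 and 77.5 CPM, giving a ratio of 1.40 (1.34 to 1.47). Nsdhl and Hsd17b7, which work with Msmo1 to strip methyl groups from the ring, did not follow it. Nsdhl was at 26.0 and 21.6 CPM, giving a ratio of 0.829 (0.769 to 0.894), and Hsd17b7 at 15.7 and 14.4 CPM, a ratio whose interval (0.835 to 1.01) held 1.

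The enzymes that open the sterol branch were at or below equality. Squalene synthase, Fdft1, was at 44.9 and 36.1 CPM, giving a ratio of 0.805 (0.760 to 0.852). Squalene epoxidase, Sqle, a rate-limiting enzyme of the branch, was at 34.9 and 36.8 CPM, with an interval of 0.993 to 1.12 that held 1. Lanosterol synthase, Lss, was at 24.9 and 21.5 CPM, giving a ratio of 0.865 (0.802 to 0.933). The closing steps were slightly above equality. The isomerase Ebp had a ratio of 1.12 (1.05 to 1.18), the desaturase Sc5d of 1.11 (1.05 to 1.18) and the reductase Dhcr7 of 1.09 (1.01 to 1.18). Tm7sf2, a sterol reductase, had the fewest reads of the 32 (279 and 265), and its interval (0.881 to 1.24) held 1.

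Taking the synthesis enzymes as 1 set of 18, the ratios ran from 0.626 to 1.48 with a median log2 ratio of -0.05, and their summed level was 662 CPM (DMSO) and 639 CPM (GANT61). The set was therefore near level in sum, with 1 of 18 called beside 24.4% of all genes.

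In the sensing machinery, Insig1 was lower while Srebf2, Scap and Insig2 were not called. Insig1, the feedback protein that retains SCAP and is itself an SREBP target, was at 95.9 CPM (DMSO) and 51.0 CPM (GANT61), a ratio of 0.532 (0.509 to 0.556). It had the lowest ratio of the 32 genes and lies on chromosome 5 at 28071363 to 28078662, plus strand (mm10). Its paralog Insig2, which retains SCAP too, was level at 66.9 and 68.3 CPM, with an interval of 0.977 to 1.07. In deposited RPKM, Insig1 was the 5th and Insig2 the 8th most abundant of the 32 genes in the DMSO-labelled library, but Insig1 was the 15th, at 15.2 RPKM, and Insig2 the 12th, at 18.3 RPKM, in the GANT61-labelled library. The order of the paralogs was thus opposite in the libraries.

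Srebf2 had 4869 reads (DMSO) and 5685 reads (GANT61), a scaled ratio of 1.29 (1.24 to 1.34), and Scap was at 60.3 and 77.4 CPM, for a ratio of 1.28 (1.23 to 1.34). Both ratios were above 1 beyond counting error and short of the threshold. Srebf2 and Insig1, both known SREBP2 targets, thus lay on opposite sides of equality. Adipocyte markers, with a median log2 ratio of -2.66 and 9 of 9 lower, stand beside the lower Insig1 and Acat2, and their part in these ratios was not tested.

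Neither LXR receptor was called. Nr1h2, the widely expressed LXR-beta, was at 79.0 CPM (DMSO) and 77.3 CPM (GANT61), with an interval of 0.939 to 1.02 that held 1. Nr1h3, LXR-alpha, was at 21.9 and 18.1 CPM, giving a ratio of 0.828 (0.763 to 0.899). Per length, Nr1h2 was the more abundant receptor in both libraries: it was the 4th of the 32 genes in each, while Nr1h3, at 8.51 and 7.03 RPKM, was the 23rd and the 25th.

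Among the 32 genes, 3 of the 4 LXR targets were higher and 0 lower, beside 14.1% and 10.3% of all genes. The median log2 ratio of these 4 was 0.93. Abca1, which loads cholesterol onto lipid-poor apolipoprotein, stood at 155 CPM (DMSO) and 486 CPM (GANT61). Its ratio of 3.13 (3.06 to 3.20) was the highest of the 32. Abca1 lies on chromosome 4 at 53030787 to 53159895, minus strand (mm10), and its promoter is shown above. Abcg1, which exports cholesterol to mature lipoprotein particles, was at 52.6 and 125 CPM, giving a ratio of 2.37 (2.27 to 2.47). It maps to chromosome 17, from 31057675 to 31117988 on the plus strand.

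Apoe, the secreted apolipoprotein that accepts this cholesterol, was at 3009 and 4634 CPM, giving a ratio of 1.54 (1.53 to 1.55). Apoe lies on chromosome 7 at 19696109 to 19699188, minus strand. It was just past the threshold, and with scaling by the upper quartile or by total counts (ratio 1.49) it was not called. Mylip, a ubiquitin ligase that removes lipoprotein receptors, was level at 76.8 and 79.2 CPM, with an interval of 0.989 to 1.07. The exporters therefore stood well above equality, while Mylip did not move with them.

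The genes of lysosomal release, transport and storage were at or above equality, with 2 of 4 higher, 0 lower and a median log2 ratio of 0.49. Of all genes, 14.1% were higher and 10.3% lower. Npc1, the membrane protein that passes cholesterol out of lysosomes, was at 45.4 CPM (DMSO) and 127 CPM (GANT61), a ratio of 2.80 (2.68 to 2.93). It lies on chromosome 18 at 12189692 to 12236400, minus strand. Npc2, the soluble partner that hands cholesterol to Npc1 inside the lysosome, was far more abundant at 819 and 935 CPM but had a ratio of 1.14 (1.13 to 1.16). The partners thus differed in ratio, and per length Npc2 stood at 199 and 226 RPKM beside 6.91 and 19.3 RPKM for Npc1.

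Soat1, which esterifies cholesterol for storage in droplets, was at 88.3 and 153 CPM, giving a ratio of 1.73 (1.68 to 1.79). It maps to chromosome 1, from 156424525 to 156474331 on the minus strand. Stard4, a cytosolic sterol carrier and SREBP2 target, was at 27.5 and 31.2 CPM, giving a ratio of 1.13 (1.06 to 1.21). The genes for export (Abca1, Abcg1), lysosomal release (Npc1) and esterification (Soat1) were thus all higher in the GANT61-labelled library. Macrophage markers stand beside these genes with a median log2 ratio of 1.07 and ratios from 0.508 to 5.54. Abca1, Abcg1 and Npc1 lay above that median at 1.64, 1.24 and 1.49, and Soat1 and Apoe below it at 0.79 and 0.62. The part of the macrophage markers in these ratios was not tested.

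SREBP2-driven synthesis was set against LXR-driven efflux with 20 SREBP2 targets (the 18 enzymes, Insig1 and Stard4) and the 4 LXR targets. Srebf2, a regulator that is also a target of SREBP2, was kept out of the first set; with it the median below became 0.01 and the difference 0.93. By the rule 0 of these 20 SREBP2 targets were higher and 2 lower, beside 14.1% and 10.3% of all genes. The share lower was thus near that of all genes. The 20 had a median log2 ratio of -0.05 and ratios from 0.532 to 1.48. The LXR targets had a median of 0.93 and ratios from 1.03 to 3.13. The medians differed by 0.98 on the log2 scale. This difference depends on which LXR targets are taken: with the further LXR targets described later, 13 genes at the floor of which 6 were higher and 3 lower, the LXR median was 0.39 and the difference 0.44. Abca1, Abcg1 and Apoe lay above each of these 20 SREBP2 targets, and Mylip lay within their range. This separation also depends on how the SREBP2 set was drawn. It does not hold every SREBP2 target. Of the genes filed under transport, Stard4 at 1.13 was taken in. Others were left out, such as Npc1 at 2.80 and Tmem97 at 1.58 (1.46 to 1.71). Npc1 lay above Abcg1 and Apoe. Tmem97 is named after its value was seen, and adding such genes was not tried. With 1 library per group this difference has no test, and the genes were chosen with earlier results of these data known.

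**Figure D2:**
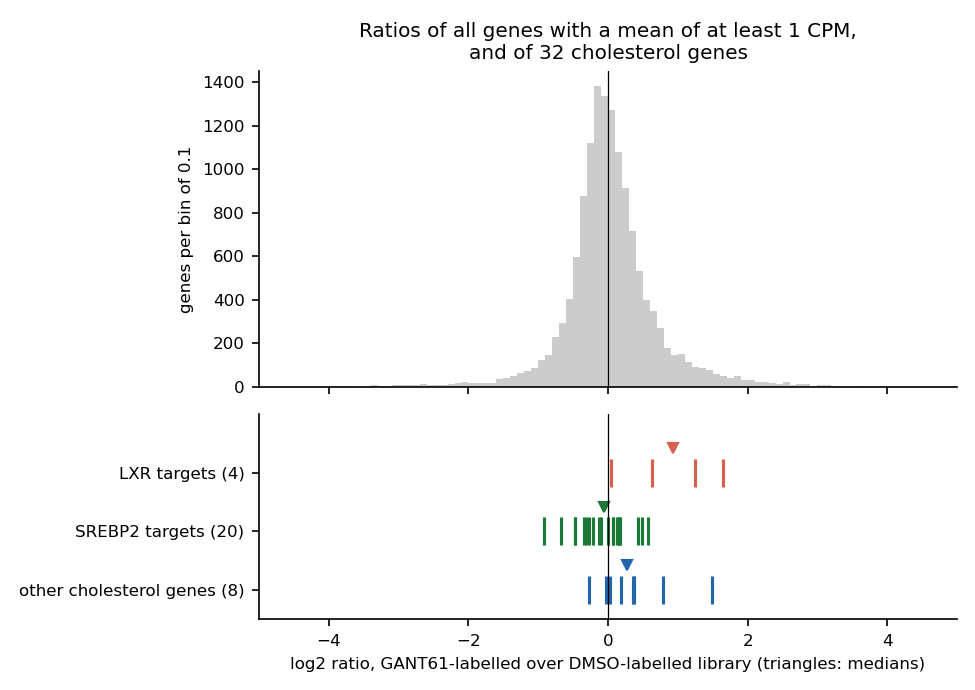
Upper panel: number of genes (vertical axis) per bin of log2 ratio (horizontal axis) for the 13939 genes that reached a mean of 1 CPM, with values beyond -5 and 5 in the end bins. Lower panel: ticks for each of the 4 LXR targets, 20 SREBP2 targets and 8 other cholesterol genes with triangles at their medians. The SREBP2 targets centre at -0.05, close to all genes at -0.01, and the LXR targets at 0.93.

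Per length, the 32 genes spanned a wide range of levels. In the DMSO-labelled library Apoe led at 1505 RPKM and was 15th of all 20003 genes; in the GANT61-labelled library it was at 2308 RPKM and 6th. Npc2 followed in both, and the lowest were Lss, Hsd17b7 and Tm7sf2, between 2.39 and 3.12 RPKM in the DMSO-labelled and between 2.48 and 2.69 RPKM in the GANT61-labelled library. Between these ends the exporters changed place. Abca1 was 17th of the 32 at 12.0 RPKM in the DMSO-labelled library and 3rd at 37.4 RPKM in the GANT61-labelled library. Npc1 went from the 26th place to the 9th and Abcg1 from the 25th, at 7.17 RPKM, to the 14th, at 16.9 RPKM. Insig1 went from the 5th place to the 15th and Acat2 from the 12th, at 14.6 RPKM, to the 22nd, at 9.10 RPKM. Places of genes with equal printed levels rest on further digits and mean little: these include Sqle and Cyp51 at 10.1 RPKM and Acat2 and Soat1 at 14.6 RPKM in the DMSO-labelled library, and Nr1h2 and Fdps at 30.2 RPKM in the GANT61-labelled library.

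**Figure D3:**
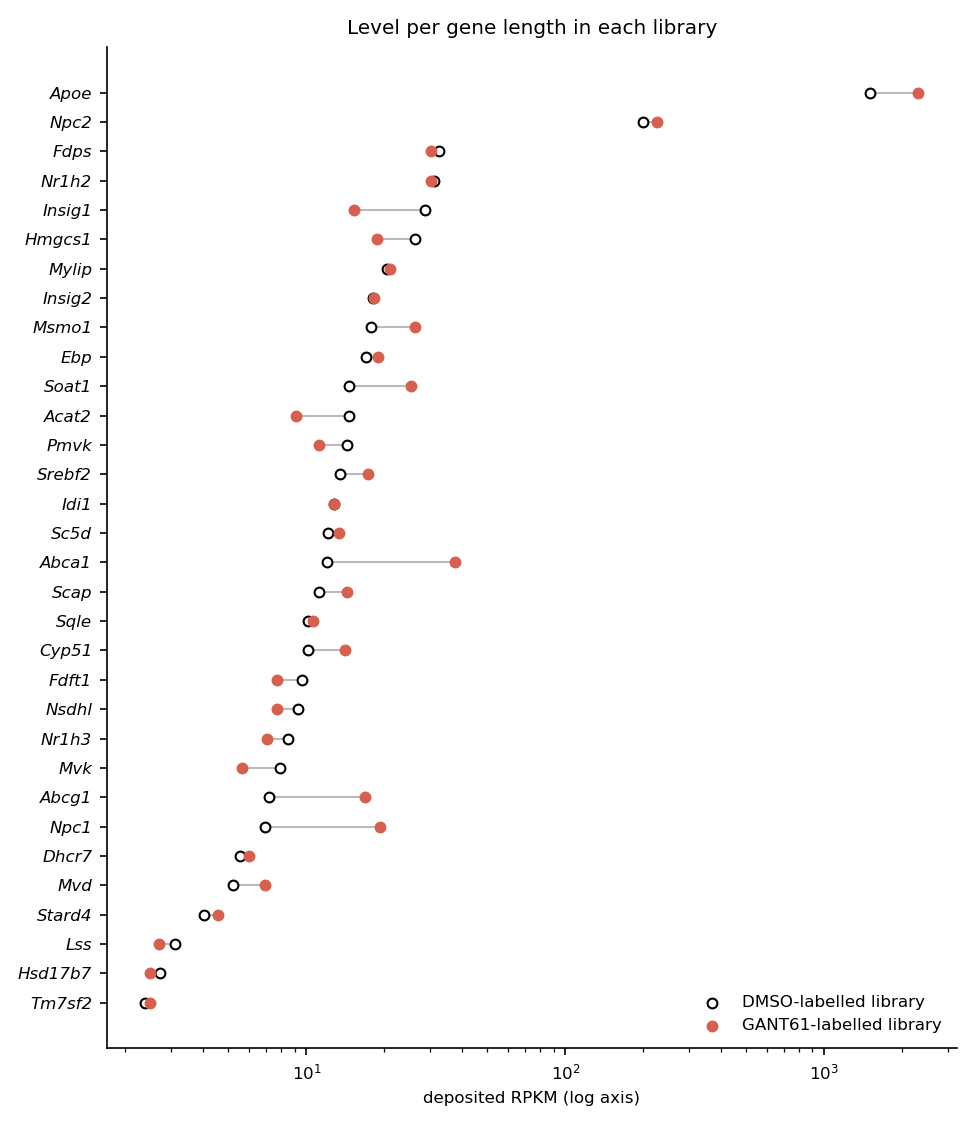
Deposited RPKM (horizontal log axis) of each of the 32 genes (rows, ordered by the DMSO-labelled library) in the DMSO-labelled (open) and GANT61-labelled (filled) libraries. Lines join the values of 1 gene, and the longest belong to Abca1 (12.0 and 37.4 RPKM), Npc1 (6.91 and 19.3 RPKM) and Abcg1 (7.17 and 16.9 RPKM).

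Some of these values rest on reads that could belong to a neighbouring gene. The deposited count was not whole in at least 1 library for 12 of the 32 genes, among them Acat2, Hmgcs1 and Npc1, and the cause of these fractions was not tested. In the GENCODE M21 annotation (mm10), exons of 5 members overlap exons of another protein-coding gene. Fdft1 shares 18.3% of its exon bases with Ctsb, the gene of the lysosomal protease cathepsin B, on the opposite strand. Fdps shares 26.7% with Gm43738 and Tm7sf2 12.1% with Vps51, on the same strand. The shares were 4.52% for Npc1 with Rmc1 and 3.76% for Cyp51 with Akap9, both on opposite strands. Whether the counting used strand is not known, so Fdft1 in particular is uncertain. Fdps and Tm7sf2 are uncertain whatever the strand setting, because their overlaps lie on the same strand.

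Further lists of cholesterol genes extended the picture, and the calls in each stand beside 14.1% of all genes higher and 10.3% lower. Of 14 further genes of sterol transport and ester turnover, 6 were higher and 0 lower by the rule, and 8 were uncalled, at a median log2 ratio of 0.54. They included the lysosomal membrane proteins Lamp1, at 738 and 1168 CPM and a ratio of 1.58 (1.56 to 1.60), and Scarb2, at 184 and 294 CPM and a ratio of 1.60 (1.56 to 1.64). Nceh1, which hydrolyses cholesteryl esters, was at 34.6 and 59.5 CPM, giving a ratio of 1.72 (1.63 to 1.82). Both Soat1 and Nceh1, which act in opposite directions on the ester pool, were higher in the GANT61-labelled library.

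Oxysterol and bile acid enzymes with their receptor numbered 8, of which 4 were higher, 0 lower and 1 below the floor (median 0.78). Of all genes at the floor, 14.1% were higher and 10.3% lower. Cyp27a1, a mitochondrial sterol hydroxylase, was at 10.9 and 20.2 CPM, giving a ratio of 1.85 (1.69 to 2.04). Cyp7b1, which inactivates oxysterols, had a ratio of 1.72 (1.56 to 1.90). Gpr183, a receptor for oxysterols, had a ratio of 1.80 (1.63 to 1.99). Ch25h, cholesterol hydroxylase, named after its value was seen, was at 5.29 and 17.6 CPM, giving a ratio of 3.32 (2.93 to 3.78).

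Further LXR targets were mixed, with 3 higher, 3 lower and 3 neither of 11, and 2 below the floor; the median was 0.34. Pltp, a phospholipid transfer protein, was at 155 and 350.4 CPM, giving a ratio of 2.26 (2.20 to 2.31). Smpdl3a, a phosphodiesterase, had a ratio of 1.75 (1.68 to 1.83). Srebf1, the lipogenic SREBP, was lower at 188 and 106 CPM, for a ratio of 0.565 (0.548 to 0.583). Named after their values were seen, Mertk, a receptor for engulfment and itself a macrophage marker, was the remaining higher gene at 1.71 (1.58 to 1.86). The remaining lower genes were Apoc1, an apolipoprotein, at 0.584 (0.525 to 0.648) and Cd5l, secreted by macrophages, at 0.614 (0.455 to 0.817). These targets therefore did not share a direction.

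Lipoprotein and scavenger uptake receptors numbered 10, of which 4 were higher, 1 lower, 4 neither and 1 below the floor (median 0.47). Msr1, a scavenger receptor of macrophages, stood at 71.5 and 230.0 CPM, for a ratio of 3.22 (3.11 to 3.33). Lrp1, a large lipoprotein receptor, had a ratio of 1.58 (1.55 to 1.61). Cd36, a fatty acid and lipoprotein receptor of macrophages and adipocytes, stood at 529 and 119 CPM, for a ratio of 0.226 (0.220 to 0.232). Named after their values were seen, Olr1 and Lrp8 were the other higher receptors, at 6.93 (5.65 to 8.65) and 2.34 (2.10 to 2.61). The SREBP proteases and degradation machinery had none called of 11 (0 higher, 0 lower), a median of 0.07 and ratios from 0.818 to 1.19.

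**Figure D4:**
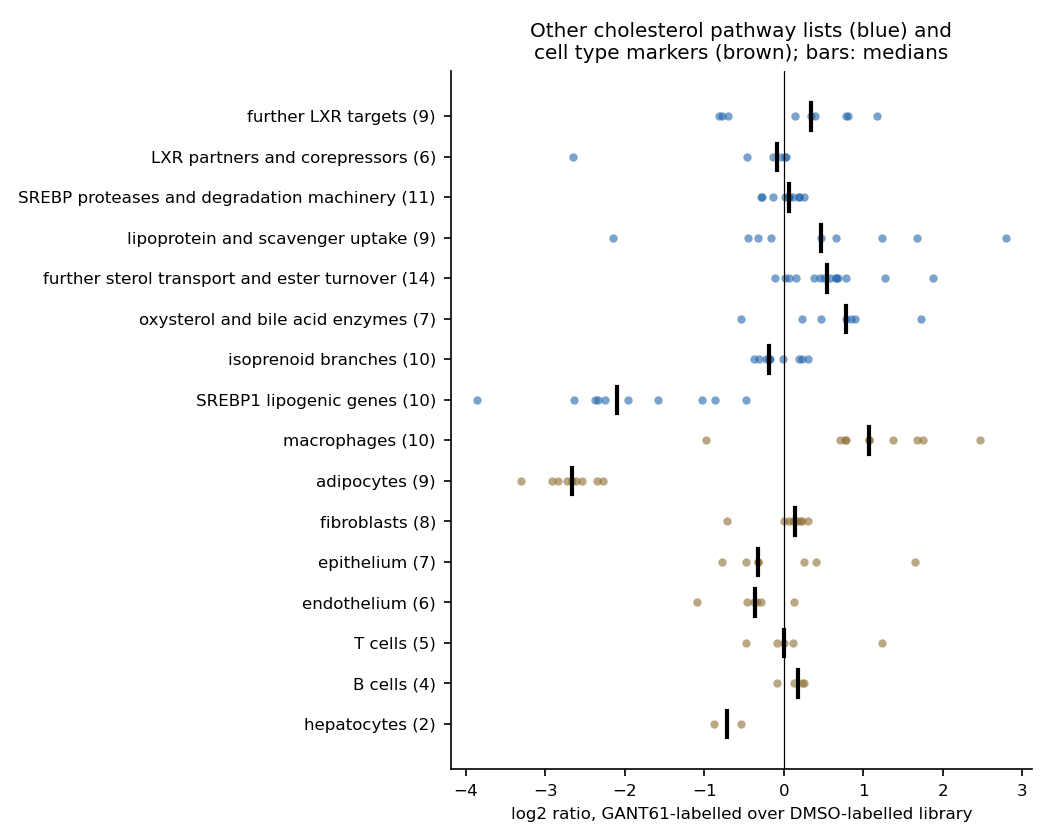
Log2 ratio (horizontal axis) of genes that reached a mean of 1 CPM, in 8 further lists of cholesterol and lipid genes (blue) and 8 lists of cell type markers (brown), with black bars at the medians and the number of genes in brackets. Among the blue lists, medians above 0 were 0.78 (oxysterol), 0.54 (sterol transport), 0.47 (uptake), 0.34 (further LXR targets) and 0.07 (SREBP proteases). All of these lie below that of the macrophage markers (1.07). Medians below 0 were -0.08 (LXR partners), -0.18 (isoprenoid branches) and -2.10 (lipogenic genes), the last near the adipocyte markers (-2.66).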

How the data were processed

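RNA from 2 libraries, 1 per treatment, was sequenced, and the 32 genes and all lists were chosen with earlier results of these data known. The authors deposited estimated counts of reads per gene (expected counts, not normalized) and RPKM values, read counts divided by gene length and library size. Per the submitters' processing notes, STAR, HISAT2, cutadapt, SAMtools, Partek, mm10 and hg19 were named; the roles, counter, annotation and strand setting are not given in the sources used here. Columns were tied to libraries by the treatment in their names, whose numbers differ from those in the titles. Counts, of which 29.5% and 29.2% of values per library were not whole, were rounded.

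Libraries were scaled with edgeR 4.0.16 (TMM, trimmed mean of M values) in R 4.3.3. Ratios used a prior count of 0.5. Their 95% exact Clopper-Pearson intervals (scipy 1.17.1) include counting error alone; the libraries carried no stated molecular identifiers, so reads may repeat a molecule. The call rule was tested on data simulated with counting error alone. That simulation held no spread between cultures, so it gives no error rate for these libraries. Named genes were all 32 members. From each of 8 other pathway lists they were the called genes with the highest mean level (at most 3), or the most abundant gene where none was called. Alternatives were DESeq2 1.42.0 size factors, upper quartile, total counts, a prior of 5, unrounded counts, the deposited RPKM values with a pseudocount of 0.1, a threshold of 2, no floor and a floor of 5 CPM. Some genes of these pathways are not reported here.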

Additional observations from a re-analysis of the deposited data

How the results depend on the processing

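With 1 library per group, no replicate could be left out and the spread between cultures is unknown. No paired analysis was possible because each group holds 1 library. Under the threshold of 2 the members called higher numbered 3 in place of 5, and those called lower 0 in place of 2; Apoe, Soat1, Insig1 and Acat2 were no longer called. The other 8 alternatives kept both counts within 1.5 times. With the upper quartile or total counts, which moved all ratios by -0.040 and -0.044 on the log2 scale, Apoe was no longer called: its ratio was 1.49 with total counts and just under the threshold with the upper quartile. The difference between the LXR and SREBP2 target medians was 0.98 to 1.04 over the 8 alternatives of scaling, unit, prior, rounding and floor. Most of these could hardly move it, so its stability lends the difference no support. Scaling shifts all log2 ratios alike, gene length cancels in a ratio, and every member passed the floor of 1 CPM. Only the floor of 5 CPM, which drops Tm7sf2, changed the difference, to 1.04. Of 192 recomputed member ratios, 186 stayed within their counting interval, and the 6 others were those of Abca1, Apoe and Npc2 under the upper quartile and total counts. No called ratio changed sign. 2 other memberships of the sets were chosen after seeing the data. With the further LXR targets added, the LXR median was 0.39 and the difference 0.44; with Srebf2 added to the SREBP2 targets, their median was 0.01 and the difference 0.93. The spread between cultures could not be measured; by counting alone Tm7sf2, with 279 and 265 reads, is the least precise member.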

Other observations

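The lipogenic genes driven by SREBP1, the sister of SREBP2, differed between the libraries in a way that the cholesterol enzymes did not. Srebf1, which encodes SREBP1 and is among the further LXR targets above, was lower too, at 0.565 (0.548 to 0.583). The LXR sets compared above do not hold every LXR target. The lipogenic genes themselves were in none of them, and adding such genes was not tried. In the GANT61-labelled library 9 of 10 lipogenic genes were lower and 0 higher by the rule, beside 10.3% and 14.1% of all genes. Their median log2 ratio was -2.10. The cholesterol enzymes had 1 lower of 18 and a median of -0.05. Scd1, a fatty acid desaturase, stood at 4867 (DMSO) and 783 CPM (GANT61), and its interval ran from 0.159 to 0.163. Fasn, which builds palmitate, stood at 2269.8 and 449 CPM, and Acly, which supplies cytosolic acetyl-CoA to fatty acid and cholesterol synthesis alike, had a ratio of 0.551 (0.541 to 0.561). All 9 adipocyte markers were lower too, summing to 6234 and 977 CPM; their part in the lipogenic ratios was not tested.

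The list of isoprenoid branches, which leave the pathway at farnesyl diphosphate, had none called of 10 (0 higher, 0 lower). The median was -0.18 and ratios ran from 0.772 to 1.24. These 10 include Lbr, a sterol reductase of the main pathway and not a branch gene. Nus1, a subunit of the dolichol synthase, was at 123 and 152 CPM. Among LXR partners and corepressors 1 of 6 was lower and 0 higher, with a median of -0.08. That gene was Rxrg, with 197 and 28 reads and a ratio of 0.159 (0.101 to 0.233). Hepatocyte markers, as cells with very active sterol synthesis, were near the floor, with a summed level of 7.17 and 4.54 CPM over 5 genes. The medians of the remaining marker lists were 0.14 for fibroblasts, -0.33 for epithelium, -0.36 for endothelium, 0.00 for T cells and 0.18 for B cells.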
